A study of Mus musculus with 10 samples.

Results

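Mouse epiblast stem cells (EpiSC) labelled wild type and diploid were compared with embryonic stem cells (ESC) carrying the same 2 labels, by RNA sequencing. The contrast was between 3 of the 10 libraries of the series, grouped by their labels. The fit behind its p-values held 9 libraries, and earlier results of these data were known when the comparison was chosen. There were 2 EpiSC libraries, of which the title marks 1 as male and gives the other the letters "fema", read here as female, and 1 ESC library whose sex the labels do not give. All 3 are of strain 129SV, and their labels name no knockout, transgene or drug. The other 7 libraries were p53-KO EpiSC (2 haploid, 1 diploid), haploid epiblast-like cells (EpiLC; 1 p53-KO, 1 wild type), haploid wild-type ESC (1) and mouse embryonic fibroblasts (MEF; 1). The design text speaks of triplicates. Passage, culture medium and the use of feeder cells are not given in the sources used here.

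ESC are derived from the inner cell mass of the blastocyst and hold the naive state of pluripotency, which leukaemia inhibitory factor (LIF), acting through Stat3, helps to sustain. EpiSC are derived from the epiblast after implantation and hold the primed state, which depends on FGF and on Activin or Nodal. Both states rest on Pou5f1 (Oct4) and Sox2. Between them the embryo's epiblast gains DNA methylation and takes on epithelial form.

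Total counts were 16885384 for female EpiSC, 17293965 for male EpiSC and 15899032 for ESC. Levels are CPM, that is, counts scaled to the library's total after TMM normalization, and wherever 2 EpiSC values stand together the female library comes before the male one. With a floor of 3 counts per library, a count of 0 allowed levels of up to 0.166 CPM (female EpiSC), 0.172 CPM (male EpiSC) and 0.191 CPM (ESC); floors and counting intervals cover counting error alone. The libraries all differed by more than sampling noise, with a chi-square per degree of freedom over genes of 78.0 between the EpiSC libraries, 178 between female EpiSC and ESC and 177 between male EpiSC and ESC. Nothing in the labels says that the EpiSC libraries are replicate cultures of 1 line, and they are labelled with different sexes. The p-values rest only in part on the spread between them. The ESC group was 1 library, assumed to vary like the replicated EpiSC groups of the same fit. Those groups were the wild-type diploid pair and the haploid p53-KO pair, which together left 2 residual degrees of freedom. With either wild-type EpiSC library left out, each side of the contrast is 1 library and only the haploid p53-KO pair sets the spread. Calls and adjusted p from those fits, given beside some lists and genes below, are therefore not comparable with those of the full fit. Gene models of some genes named here overlap another expressed gene, and without a stated strand setting reads of such pairs (Xist and Tsix, Dnmt3l and Aire, Tdh and Gm17232) cannot be told apart. The haploid wild-type ESC library was no part of the contrast. Its level is set beside results as the other ESC library of the series, and it differs from the diploid one in ploidy by label.

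The 4 genes used to check the labels stood where those labels place them. Fgf5, an FGF ligand of the post-implantation epiblast (ENSMUSG00000029337, mm10 chromosome 5 at 98254184 to 98277030), had 48.2 and 35.4 CPM in EpiSC versus 0.0637 CPM in ESC. Its ESC level rests on 1 read, and the ratio was 658-fold (95% counting interval 118 to 26023), higher in EpiSC, with an edgeR adjusted p of 0.00373. Otx2, a transcription factor of the primed state (ENSMUSG00000021848, chromosome 14 at 48657677 to 48673819), had 99.8 and 80.9 CPM in EpiSC versus 10.2 CPM in ESC; its EpiSC mean was 90.4 ± 13.3 CPM (SD, n = 2), and its log2 fold change was 3.15 ± 0.48 (SE; adjusted p = 0.0107). Tfcp2l1, a naive-state transcription factor downstream of Stat3 (ENSMUSG00000026380, chromosome 1 at 118627945 to 118685168), had 5.88 and 30.6 CPM in EpiSC versus 1045 CPM in ESC, and a mean of 18.3 ± 17.5 CPM in EpiSC (SD, n = 2). Zfp42, also called Rex1, which marks the naive state (ENSMUSG00000051176, chromosome 8 at 43295063 to 43306980), had 0.388 and 2.13 CPM in EpiSC versus 550.0 CPM in ESC, with a mean of 1.26 ± 1.23 CPM in EpiSC. The EpiSC libraries did not overlap with the ESC library in any of these genes, which held for 79.3% of all genes tested as well. The male EpiSC library held more Tfcp2l1 and Zfp42 than the female one, but both lay far below ESC: the log2 fold changes were -5.84 ± 0.83 (adjusted p = 0.00859) and -8.77 ± 0.75 (adjusted p = 0.00252). In haploid ESC the levels were 0.154 CPM for Fgf5, 17.0 CPM for Otx2, 525 CPM for Tfcp2l1 and 187 CPM for Zfp42. With only the 3 libraries compared in the fit, Tfcp2l1 no longer passed (adjusted p = 0.0571).

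Of 20583 genes tested, 1974 passed the threshold of 0.05 on the edgeR adjusted p, or 9.59%. Of these, 1144 were higher in EpiSC (5.56% of the genes tested) and 830 were lower (4.03%). Counts of list members called below are to be read against these shares. Every one of the 1974 differed by at least 2-fold and had both EpiSC libraries on the same side of the ESC library (79.3% of all genes tested did, 38.8% with both EpiSC libraries above ESC and 40.4% with both below). The median absolute log2 fold change of the called genes was 4.17, and 1780 of them were protein-coding. In 133 of the genes that were higher in EpiSC the ESC library had no read, and in 140 of those that were lower both EpiSC libraries had none. With the haploid ESC library in place of the diploid one 1024 genes passed, 380 higher and 644 lower in EpiSC. Of the 1974 genes, 743 were called in that fit too and in the same direction. With only the 3 libraries compared in the fit 535 passed.

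**Figure D1:**
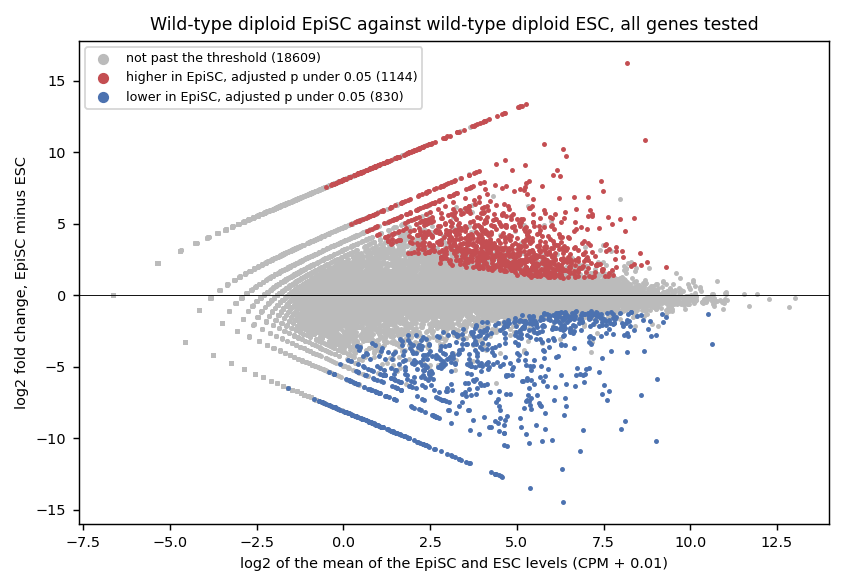
Log2 fold change (EpiSC minus ESC) of each of the 20583 genes tested against the log2 of the mean of the EpiSC and ESC levels (CPM + 0.01). The 1144 genes higher and the 830 genes lower in EpiSC at an adjusted p under 0.05 are coloured; the straight outer bands are genes with 0 or a few reads on one side.

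Genes of the naive state were low in EpiSC. Of 20 listed, all of them tested, 16 fell and none rose, and the list's median log2 fold change was -5.70, against 0.03 over all genes tested. In bulk RNA, fewer cells of a type and less RNA per cell cannot be told apart. Esrrb, an orphan nuclear receptor, had 11.1 and 0.747 CPM in EpiSC versus 753 CPM in ESC, and its log2 fold change was -6.99 ± 1.12 (adjusted p = 0.0125). Dppa5a, a pluripotency-associated RNA-binding protein, had 1.44 and 0.287 CPM in EpiSC versus 1024 CPM in ESC (-10.19 ± 0.81, adjusted p = 0.00208). Both EpiSC libraries were well below ESC for each, and the male library was the lower of the pair. Nr5a2, a nuclear receptor that can drive Pou5f1, had 0.277 and 0.0575 CPM in EpiSC versus 92.8 CPM in ESC (-9.04 ± 0.69, adjusted p = 0.00206). Prdm14, which restrains FGF signalling and DNA methylation in ESC, had 1 read in the 2 EpiSC libraries together, and was 1847-fold (95% counting interval 331 to 73049.5) lower in EpiSC, against 52.1 CPM in ESC. Tdh, the threonine dehydrogenase on which mouse ESC metabolism depends, had 1.55 and 0 CPM in EpiSC versus 510.1 CPM in ESC. The other members that fell were Pecam1, Klf4, Tbx3, Fbxo15, Dppa3, Tet2, Klf2, Klf5 and Nanog.

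The members of the naive list differed in how far they fell. Nanog, the homeobox factor that ESC need for stable self-renewal, had 78.0 and 23.7 CPM in EpiSC versus 765 CPM in ESC (-3.91 ± 0.73, adjusted p = 0.0198), so a substantial level remained in both EpiSC libraries. Klf5, a Krüppel-like factor, had 37.0 and 65.6 CPM in EpiSC versus 223 CPM in ESC (-2.12 ± 0.37), and Tet2, which oxidises 5-methylcytosine, had 34.6 and 31.3 CPM in EpiSC versus 259 CPM in ESC (-2.97 ± 0.49). These were the smallest changes among the 16. The 4 members that did not pass were Fgf4, Spp1, Nr0b1 and Gbx2. Fgf4, the ligand that ESC make to act on themselves, had 19.4 and 101 CPM in EpiSC versus 239 CPM in ESC (adjusted p = 0.198), both EpiSC values being lower. Nr0b1 (Dax1), a nuclear receptor corepressor, separated the EpiSC libraries instead, with 59.7 and 0.230 CPM in EpiSC versus 90.7 CPM in ESC (adjusted p = 0.623): the female library lay near ESC and the male one near 0. Spp1, the secreted protein osteopontin, had 795 and 354 CPM in EpiSC versus 368 CPM in ESC, and Gbx2, a homeobox target of Stat3, had 9.93 and 1.49 CPM in EpiSC versus 8.98 CPM in ESC, with the ESC value between the EpiSC values in each. The summed level of the list was 1077 and 624 CPM in EpiSC, against 7161 CPM in ESC; haploid ESC held 4049 CPM. Also against haploid ESC 16 members fell, with a median of -5.10, and with only the 3 libraries in the fit 8 did.

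The core factors shared by both states moved less. Of 15 listed, 1 rose (6.67%) and 4 fell (26.7%), against 5.56% and 4.03% of all genes tested. The median log2 fold change was -0.75. Pou5f1, the POU factor without which neither state persists, had 546 and 688 CPM in EpiSC versus 894 CPM in ESC, and its log2 fold change of -0.54 ± 0.31 did not pass (adjusted p = 0.347). Its haploid ESC level, 389 CPM, lay below both EpiSC libraries, so the order depended on which ESC library was used. Sox2, its partner, had 238 and 148 CPM in EpiSC versus 458 CPM in ESC (-1.24 ± 0.38, adjusted p = 0.0889), and the EpiSC libraries were the lower ones without passing. Lin28b, an RNA-binding protein that blocks let-7 maturation, rose, with 123 and 146 CPM in EpiSC versus 14.5 CPM in ESC (3.21 ± 0.36, adjusted p = 0.00435). Dppa2 and Dppa4, partner SAP-domain proteins that prime genes of the early embryo, fell to 2.72 and 0.115 CPM in EpiSC, against 115 CPM in ESC, for Dppa2 (-6.32 ± 1.09, adjusted p = 0.0158), and to 0.776 and 0.172 CPM in EpiSC, against 104 CPM in ESC, for Dppa4 (-7.75 ± 1.02, adjusted p = 0.00692). Both were thus all but lost in each EpiSC library. Tdgf1 (Cripto), the co-receptor of Nodal, and Trim28, the corepressor of retrotransposons, fell by smaller amounts: Tdgf1 had 147 and 137 CPM in EpiSC versus 737 CPM in ESC (-2.37 ± 0.39), and Trim28 had 841 and 841 CPM in EpiSC versus 2098 CPM in ESC (-1.32 ± 0.32, adjusted p = 0.0467). Haploid ESC held 963 CPM of Trim28, closer to EpiSC than to diploid ESC, and against that library 2 core members fell. Trim28 also lost its call without the female library (adjusted p = 0.0948) and without the male one (adjusted p = 0.117).

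Genes of the post-implantation epiblast were high in EpiSC. Of 19 listed, 13 rose and none fell, and the median log2 fold change was 3.15; without the female library 14 rose and 2 fell. Pou3f1 (Oct6), a POU factor of the epiblast, had 162 and 247 CPM in EpiSC versus 3.12 CPM in ESC (6.03 ± 0.51, adjusted p = 0.00250). Sox11, a SOX factor, had 449 and 115 CPM in EpiSC versus 5.41 CPM in ESC (5.70 ± 0.94), and its relative Sox4 had 128 and 159.5 CPM in EpiSC versus 14.7 CPM in ESC (3.29 ± 0.51), with the female library the higher of the EpiSC pair for Sox11 and the male one for Sox4. Zic2, a zinc-finger factor of the epiblast and neural plate, had 264 and 273 CPM in EpiSC versus 39.9 CPM in ESC (2.75 ± 0.32), and Zic5 had 133 and 202 CPM in EpiSC versus 37.9 CPM in ESC (2.14 ± 0.39). Pim2, a serine-threonine kinase, had 981 and 309.9 CPM in EpiSC versus 15.6 CPM in ESC (5.37 ± 1.01), and Cldn6, a tight-junction claudin of the early embryo, had 202 and 429.8 CPM in EpiSC versus 12.3 CPM in ESC (4.68 ± 0.79). In each of these both EpiSC libraries lay above ESC, as they did in 38.8% of all genes tested. The others that rose were Fgf5, Grhl2, Sall2, Sox3, Otx2 and Dnmt3b.

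Of the members that did not pass, Lef1, a Wnt effector, had 58.9 and 15.9 CPM in EpiSC versus 3.25 CPM in ESC (adjusted p = 0.0544), Dnmt3a had 627 and 265 CPM in EpiSC versus 117 CPM in ESC (adjusted p = 0.107) and Sfrp2, a secreted Wnt antagonist, had 44.4 and 13.2 CPM in EpiSC versus 7.51 CPM in ESC (adjusted p = 0.176). In these 3 both EpiSC libraries were above ESC but the female one was more than 2 times the male one. Tead2 had 288 and 227 CPM in EpiSC versus 159.8 CPM in ESC. Tcf15, a basic helix-loop-helix factor, lay the other way, with 15.7 and 4.77 CPM in EpiSC versus 20.5 CPM in ESC, both EpiSC values being below ESC. The summed level of the 19 genes was 4637 and 3754 CPM in EpiSC, against 811 CPM in ESC; haploid ESC held 792 CPM, and against it 12 members rose. Grhl2, a driver of epithelial genes, had 52.1 and 69.3 CPM in EpiSC versus 3.69 CPM in ESC, whereas haploid ESC held 40.1 CPM.

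**Figure D2:**
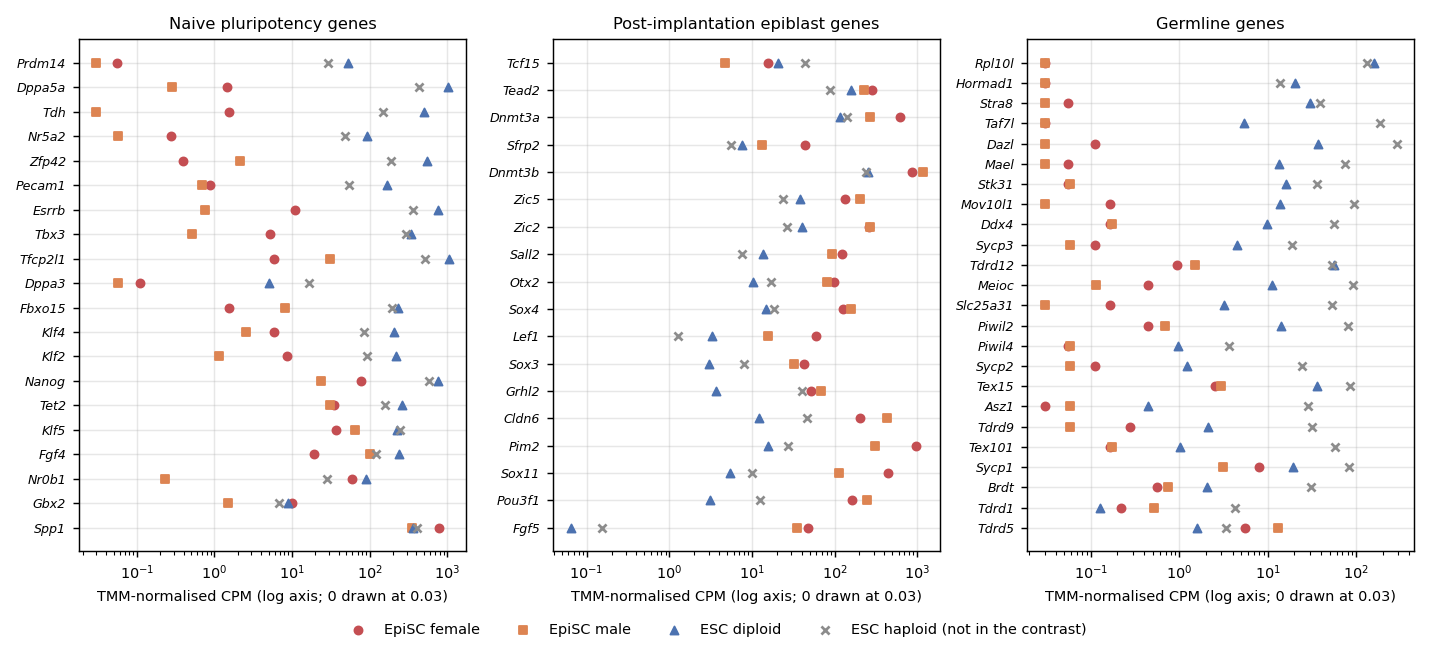
TMM-normalised CPM (log axis, a count of 0 drawn at 0.03) of members of the naive pluripotency, post-implantation epiblast and germline lists in female EpiSC, male EpiSC, diploid ESC and haploid ESC. In the naive panel 18 of 20 genes have both EpiSC libraries below diploid ESC, in the epiblast panel nearly all genes drawn have both above it, and in the germline panel 22 of 24 have both below it. Over all genes tested, 40.4% have both EpiSC libraries below diploid ESC and 38.8% have both above it.

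FGF signals reach the cell through Fgfr receptors and the ERK kinases, whose targets include the phosphatases and Sprouty-type proteins that damp the pathway. Among 18 FGF ligands, receptors and adaptors 3 rose and none fell (median log2 fold change 1.58): Fgf5, Fgf15 and Fgfr2. Fgf15, a ligand of the endocrine FGF family, had 42.2 and 14.5 CPM in EpiSC versus 0.637 CPM in ESC (5.46 ± 0.95, adjusted p = 0.0162). Fgfr2 had 29.3 and 110.4 CPM in EpiSC versus 6.43 CPM in ESC (3.44 ± 0.83, adjusted p = 0.0442), most of it in the male library. Fgfr1, the main receptor of the epiblast, had 287 and 293 CPM in EpiSC versus 153 CPM in ESC and did not pass (adjusted p = 0.107). Fgf8 and Fgf17, ligands of the gastrulating embryo, were uneven between the EpiSC libraries: Fgf8 had 7.43 and 0.460 CPM in EpiSC versus 0.446 CPM in ESC, and Fgf17 had 46.0 and 12.9 CPM in EpiSC versus 3.69 CPM in ESC. Against haploid ESC the median of the 18 genes was -0.53, and Fgfr2, at 16.1 CPM there, no longer passed (adjusted p = 0.173). The gene model of Fgfr2 in the files overlaps at least 4 other expressed genes, so its count is uncertain. Without the male library 7 of the 18 rose and 1 fell.

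Of 17 ERK feedback and target genes, 7 rose, none fell and the median was 1.77. Dusp4 and Dusp6, phosphatases that switch off ERK, had 128 and 69.5 CPM in EpiSC versus 2.29 CPM in ESC for Dusp4 (5.42 ± 0.69, adjusted p = 0.00625) and 213 and 113 CPM in EpiSC versus 21.8 CPM in ESC for Dusp6 (2.90 ± 0.48, adjusted p = 0.0134). Dusp5 had 96.3 and 69.8 CPM in EpiSC versus 12.5 CPM in ESC (2.73 ± 0.37), and Spred3, an inhibitor of Ras signalling, had 76.9 and 44.3 CPM in EpiSC versus 5.79 CPM in ESC (3.39 ± 0.49). All 4 were higher in the female than in the male EpiSC library, and the lower of the pair was still above ESC. Spry1, Egr1 and Ier3 were the other members that rose. Etv5, an ETS factor induced by FGF, had 237 and 166 CPM in EpiSC versus 471 CPM in ESC, and Etv4 had 145 and 29.4 CPM in EpiSC versus 96.5 CPM in ESC; neither passed (adjusted p = 0.0606 and 0.938), and Etv5 was the lower in both EpiSC libraries. Haploid ESC lay between EpiSC and diploid ESC for Dusp4, at 27.4 CPM, and Dusp5, at 54.8 CPM. Ier3, a stress-response gene, had 59.3 and 36.6 CPM in EpiSC versus 5.60 CPM in ESC, and haploid ESC, at 84.2 CPM, was above both EpiSC libraries. Dusp6, at 19.3 CPM there, was close to diploid ESC. Against haploid ESC 2 members rose (median 0.59), and with only the 3 libraries in the fit 2 did. Without the male library 11 rose, and without the female library 8 rose and 2 fell, Spry1 being lost (adjusted p = 0.0559).

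**Figure D3:**
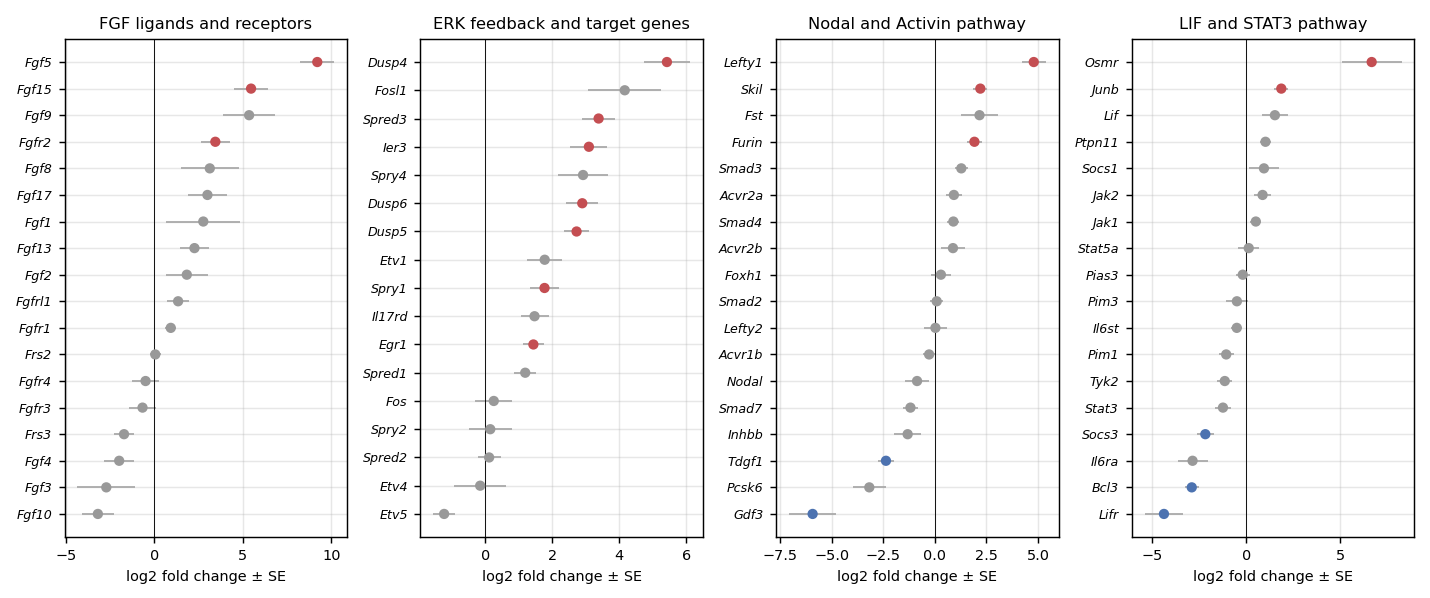
Log2 fold change (EpiSC minus ESC) with its SE for tested members of the FGF, ERK, Nodal and Activin, and LIF and STAT3 lists; red marks genes that rose, blue genes that fell and grey genes that did not pass. Inhba, which has no read in ESC, is left out. The ERK panel runs from 5.42 (Dusp4) to -1.23 (Etv5).

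Among 20 tested genes of the Nodal and Activin pathway 5 rose (25%) and 2 fell (10%), against 5.56% and 4.03% of all genes tested (median 0.58). Lefty1, the secreted antagonist that Nodal induces, had 277 and 168 CPM in EpiSC versus 8.02 CPM in ESC (4.79 ± 0.59, adjusted p = 0.00547), whereas its neighbour and relative Lefty2 had 15.3 and 41.3 CPM in EpiSC versus 27.8 CPM in ESC and did not pass (adjusted p = 0.993). Nodal, the ligand, had 18.7 and 62.6 CPM in EpiSC versus 74.1 CPM in ESC (adjusted p = 0.428). Skil, a feedback repressor of Smad, had 265 and 285 CPM in EpiSC versus 59.8 CPM in ESC (2.20 ± 0.34). Furin, the protease that matures the ligands, had 139 and 89.7 CPM in EpiSC versus 30.2 CPM in ESC (1.92 ± 0.38). These inducers and targets did not move as 1 block, since Gdf3, a ligand related to Nodal, fell, with 0.832 and 1.90 CPM in EpiSC versus 83.5 CPM in ESC (-5.93 ± 1.15, adjusted p = 0.0231), as did the co-receptor Tdgf1. The receptors Acvr1b, Acvr2a and Acvr2b and the mediators Smad2, Smad3, Smad4 and Foxh1 did not pass. Inhba, which encodes the subunit of Activin A, had 102 and 30.1 CPM in EpiSC versus 0 CPM in ESC, and was at least 347-fold higher in EpiSC. Haploid ESC, however, held 181 CPM of Inhba, above both EpiSC libraries, and against that library 1 gene of the pathway rose and 1 fell. Without the female library 5 rose and 5 fell, and without the male library 6 rose and 4 fell.

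In the LIF pathway 3 of 18 genes fell (16.7%) and 2 rose (11.1%), against 4.03% and 5.56% of all genes tested (median -0.34). Lifr, the LIF receptor, had 8.82 and 1.26 CPM in EpiSC versus 105 CPM in ESC (-4.37 ± 1.03, adjusted p = 0.0413). Socs3, the feedback inhibitor that Stat3 induces, had 25.3 and 13.0 CPM in EpiSC versus 86.6 CPM in ESC (-2.17 ± 0.46), and Bcl3, an IκB-family target of Stat3, had 10.7 and 9.02 CPM in EpiSC versus 73.4 CPM in ESC (-2.89 ± 0.36, adjusted p = 0.00593). Receptor and both targets were thus lower in each EpiSC library. Il6st (gp130), the shared signalling subunit, had 85.4 and 75.1 CPM in EpiSC versus 113 CPM in ESC, and Stat3 itself had 86.7 and 46.3 CPM in EpiSC versus 156 CPM in ESC; neither passed (adjusted p = 0.332 and 0.109). Junb, an AP-1 component, had 64.9 and 80.5 CPM in EpiSC versus 19.9 CPM in ESC and rose (1.87 ± 0.38), and Osmr, the oncostatin M receptor, rose with 11.5 and 2.99 CPM in EpiSC versus 0.0637 CPM in ESC (adjusted p = 0.0427), its ESC level resting on 1 read. In haploid ESC Junb stood at 131 CPM and Osmr at 9.32 CPM, and none of the 18 rose against that library. With only the 3 libraries in the fit 1 fell and none rose, and without the male library 3 rose and 6 fell.

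Of 20 BMP and Id genes, 3 rose, or 15%, against 5.56% of all genes tested (median 0.90). Id2, an inhibitor of basic helix-loop-helix factors, had 47.3 and 31.8 CPM in EpiSC versus 4.27 CPM in ESC (3.21 ± 0.64), Bmpr1b, a type I receptor, had 11.04 and 3.74 CPM in EpiSC versus 0.127 CPM in ESC (adjusted p = 0.0291, 2 reads in ESC), and Gdf6 had 2.05 and 1.72 CPM in EpiSC versus 0 CPM in ESC (adjusted p = 0.0374). Id1, which BMP sustains in ESC, had 12.1 and 4.02 CPM in EpiSC versus 7.51 CPM in ESC, and Id3, also a BMP target, had 20.5 and 6.495 CPM in EpiSC versus 25.5 CPM in ESC; neither passed. Against haploid ESC none of the 20 rose and 2 fell, and none passed in the fit of 3 libraries. Of 23 genes of the Wnt pathway 2 rose and 1 fell (median 0.15), or 8.70% and 4.35%, against 5.56% and 4.03% of all genes tested. The called members were all receptors of the Frizzled family. Fzd2 had 138 and 110.1 CPM in EpiSC versus 10.3 CPM in ESC (3.59 ± 0.41, adjusted p = 0.00447), Fzd7 had 189 and 320.2 CPM in EpiSC versus 59.0 CPM in ESC (2.11 ± 0.52), and Fzd5 had 33.2 and 41.4 CPM in EpiSC versus 137 CPM in ESC (-1.88 ± 0.40). The direct target Axin2 had 15.8 and 1.55 CPM in EpiSC versus 33.2 CPM in ESC (adjusted p = 0.376). Without the female library 4 of the 23 rose and 5 fell, and without the male library 5 rose and 1 fell.

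The enzymes of DNA methylation changed in both directions. Of 12 listed, 1 rose (8.33%) and 4 fell (33.3%), against 5.56% and 4.03% of all genes tested. The median was -0.08, with -0.28 without the female library and 0.05 without the male library. Dnmt3b, a de novo methyltransferase, rose, with 859 and 1167 CPM in EpiSC versus 253 CPM in ESC (2.001 ± 0.39, adjusted p = 0.0241). Dnmt3l, the catalytically inactive cofactor of the de novo enzymes, all but disappeared, with 0.444 and 0.230 CPM in EpiSC versus 241 CPM in ESC (-9.45 ± 0.45, adjusted p = 0.00153). Zfp57, the zinc-finger protein that guards imprints, had 53.02 and 88.1 CPM in EpiSC versus 516 CPM in ESC (-2.87 ± 0.41), and Uhrf1, which brings Dnmt1 to replicating DNA, had 298 and 351 CPM in EpiSC versus 929 CPM in ESC (-1.52 ± 0.30). Tet2 fell as given above, Tet1 had 183 and 189 CPM in EpiSC versus 763 CPM in ESC and Tet3, a related dioxygenase, had 107 and 61.0 CPM in EpiSC versus 17.2 CPM in ESC. The direction of Tet1 and that of Tet3 were opposite in both EpiSC libraries, but neither passed (adjusted p = 0.0903 and 0.0607). Dnmt1, the maintenance enzyme, had 444 and 377 CPM in EpiSC versus 596 CPM in ESC (adjusted p = 0.325). In haploid ESC Uhrf1 stood at 308 CPM, within the EpiSC values, and its sign turned there; 2 of the 12 fell against that library.

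Germline genes, which in many somatic cells are silenced by promoter methylation, were low or undetected in EpiSC. Of 24 listed, all tested, 15 fell and none rose. The median log2 fold change was -5.20, or -5.05 with genes at 0 on a side set to their bound. Rpl10l, an autosomal retrocopy of a ribosomal protein gene that is used in spermatogenesis, had no read in either EpiSC library, against 160.1 CPM in ESC, and was at least 945-fold lower in EpiSC (adjusted p = 0.00291). Reads of such a retrocopy may be shared with its parent gene, so its level is uncertain. Hormad1, a protein of the meiotic chromosome axis, had 0 and 0 CPM in EpiSC versus 20.2 CPM in ESC, at least 119.5-fold lower in EpiSC. Taf7l, a germ-cell form of a general transcription factor subunit, had 0 and 0 CPM in EpiSC versus 5.35 CPM in ESC. Dazl, an RNA-binding protein of germ cells, had 0.111 and 0 CPM in EpiSC versus 36.8 CPM in ESC, 652-fold (95% counting interval 179.6 to 5395) lower in EpiSC. Stk31, a Tudor-domain kinase, had 0.0555 and 0.0575 CPM in EpiSC versus 16.2 CPM in ESC, and Mael, a factor of the piRNA pathway, had 0.0555 and 0 CPM in EpiSC versus 13.6 CPM in ESC. The piRNA genes Tdrd12 and Piwil2 were detected at low levels in EpiSC, with 0.943 and 1.49 CPM in EpiSC versus 56.9 CPM in ESC for Tdrd12 (-5.54 ± 0.43) and 0.444 and 0.690 CPM in EpiSC versus 14.1 CPM in ESC for Piwil2 (-4.62 ± 0.51), and Ddx4 (Vasa), a germ-granule helicase, had 0.166 and 0.172 CPM in EpiSC versus 9.93 CPM in ESC (-5.81 ± 0.56). The other members that fell were Stra8, Tex15, Meioc, Mov10l1, Sycp3 and Slc25a31. The exceptions in direction were the Tudor-domain genes Tdrd5, with 5.49 and 13.1 CPM in EpiSC versus 1.59 CPM in ESC, and Tdrd1, with 0.222 and 0.517 CPM in EpiSC versus 0.127 CPM in ESC; neither passed (adjusted p = 0.0958 and 0.603). The summed level was 20.2 and 23.5 CPM in EpiSC, against 460.1 CPM in ESC and 1573 CPM in haploid ESC. The ESC libraries thus differed from each other as well, with 21 of 24 members higher in the haploid one. Against haploid ESC 22 members fell, and with only the 3 libraries in the fit 9 did.

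Promoters of germline genes are shown because the members fell together and because the E-box CACGTG and the E2F-type motif TCCCGC are known from genes of this class. The sequences are the 250 bases before the RefSeq start (GRCm38.p6), written 5′ to 3′ on the strand of the gene, with capitals marking matches to CACGTG or TCCCGC on either strand. Hormad1 lies at chr3:95559427-95559676 on the plus strand, Mael at chr1:166238745-166238994 on the minus strand, Stk31 at chr6:49395354-49395603 on the plus strand, Taf7l at chrX:134476491-134476740 on the minus strand and Dazl at chr17:50293621-50293870 on the minus strand. The promoters of Hormad1 and Mael hold both motifs, those of Stk31 and Taf7l hold CACGTG alone, and that of Dazl, which also fell, holds neither.
Hormad1: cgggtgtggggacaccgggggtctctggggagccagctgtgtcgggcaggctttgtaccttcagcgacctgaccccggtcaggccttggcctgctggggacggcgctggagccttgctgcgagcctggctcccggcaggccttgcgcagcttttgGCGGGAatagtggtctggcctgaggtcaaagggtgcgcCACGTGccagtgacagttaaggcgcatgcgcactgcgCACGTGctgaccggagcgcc
Mael: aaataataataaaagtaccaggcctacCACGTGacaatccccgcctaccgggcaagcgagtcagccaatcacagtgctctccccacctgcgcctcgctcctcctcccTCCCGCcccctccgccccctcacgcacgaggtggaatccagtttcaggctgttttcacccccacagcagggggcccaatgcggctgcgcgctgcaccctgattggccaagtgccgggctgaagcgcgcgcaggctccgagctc
Stk31: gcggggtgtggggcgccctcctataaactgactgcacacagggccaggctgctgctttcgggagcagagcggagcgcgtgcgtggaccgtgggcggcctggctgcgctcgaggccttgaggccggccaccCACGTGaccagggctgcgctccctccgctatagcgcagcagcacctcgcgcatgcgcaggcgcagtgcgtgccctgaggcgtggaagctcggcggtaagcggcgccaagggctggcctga
Taf7l: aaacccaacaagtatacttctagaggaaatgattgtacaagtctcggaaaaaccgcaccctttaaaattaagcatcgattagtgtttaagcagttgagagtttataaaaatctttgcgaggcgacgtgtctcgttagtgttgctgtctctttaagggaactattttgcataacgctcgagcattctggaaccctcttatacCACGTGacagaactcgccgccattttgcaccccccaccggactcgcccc
Dazl: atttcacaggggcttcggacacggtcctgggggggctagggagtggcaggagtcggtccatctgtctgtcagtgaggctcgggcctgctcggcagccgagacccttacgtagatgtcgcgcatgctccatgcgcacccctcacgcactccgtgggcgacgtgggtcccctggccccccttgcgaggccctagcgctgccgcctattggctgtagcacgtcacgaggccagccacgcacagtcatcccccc

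Of the 24 listed germline genes 22 had a promoter in the table. CACGTG, which reads the same on both strands, was found in 12 of these 22 (54.5%), against 1062 of the 13249 promoters of tested genes (8.02%). It was in 8 of 13 promoters of members that fell and in 4 of 9 of members that did not pass. The longer motif TTCCCGC, which contains TCCCGC, was in 6 of 22 (27.3%), against 6.54% of all, and TCCCGC itself was in 31.8%, against 28.2% of all. These are matches of letters in a window, not binding sites. CACGTG was in 9.82% of the promoters of all genes that were lower in EpiSC and in 5.40% of those that were higher. The median observed over expected CpG ratio was 0.69 in the germline promoters and 0.68 in all. None of the 10 promoters found for 2-cell-like genes held any of the motifs. Those promoters had a median of 1 CpG, against 14 in all, and each motif contains a CpG, which leaves little room for a match.

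Genes of the 2-cell-like state, a rare state of ESC cultures that uses genes of the early embryo, were nearly silent in EpiSC. Of 16 tested, 6 fell and none rose. The median log2 fold change was -6.83, or -2.64 with genes at 0 set to their bound. Zscan4d, a member of the Zscan4 telomere-maintenance cluster, had 0 and 0 CPM in EpiSC versus 5.67 CPM in ESC, at least 33.4-fold lower in EpiSC (adjusted p = 0.0134), and Zscan4c had 0 and 0 CPM in EpiSC versus 2.74 CPM in ESC, at least 16.2-fold lower. The members of this cluster are near-identical copies, so reads may be split among them. The summed level was 0.444 and 0.287 CPM in EpiSC, against 23.9 CPM in ESC; haploid ESC held 224 CPM. No member was called in the fit of 3 libraries, and 14 fell against haploid ESC.

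The genes with the largest changes downward by the naming rule were Rpl10l, D1Pas1, Sohlh2, Crxos, Khdc3, Calcoco2, Smtnl1, Psma8, Fmr1nb and Hormad1. Sohlh2, a basic helix-loop-helix factor of early germ cells, had 0 and 0 CPM in EpiSC versus 46.3 CPM in ESC, at least 273-fold lower in EpiSC, with 133 CPM in haploid ESC. D1Pas1, a testis-expressed helicase gene, had 0 and 0 CPM in EpiSC versus 48.0 CPM in ESC, at least 283-fold lower, and Psma8, the proteasome subunit of spermatocytes, had 0 and 0 CPM in EpiSC versus 23.2 CPM in ESC. Khdc3 (Filia), a maternal-effect protein that guards genome stability in ESC, had 0 and 0 CPM in EpiSC versus 41.6 CPM in ESC, at least 245-fold lower. Calcoco2, an autophagy receptor, had 1 read in the EpiSC libraries together, against 159 CPM in ESC, and was 5625-fold (95% counting interval 1009 to 222269) lower in EpiSC. In all 10 genes both EpiSC libraries were at or next to 0 and both ESC libraries held the transcript: the haploid ESC level was 134 CPM for Rpl10l, 8.50 CPM for Khdc3 and 58.4 CPM for Calcoco2.

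The epiblast is an epithelium, and 12 of 20 epithelial genes rose in EpiSC while none fell (median 2.88). Krt8 and Krt18, the partner keratins of simple epithelia, had 386 and 596 CPM in EpiSC versus 12.0 CPM in ESC for Krt8 (5.35 ± 0.64, adjusted p = 0.00513) and 228 and 332 CPM in EpiSC versus 5.98 CPM in ESC for Krt18 (5.55 ± 0.64). Esrp1, a splicing factor of epithelial cells, had 143 and 187 CPM in EpiSC versus 2.86 CPM in ESC (5.84 ± 0.51, adjusted p = 0.00262), and Epcam, an epithelial adhesion molecule, had 319 and 409 CPM in EpiSC versus 38.7 CPM in ESC (3.23 ± 0.44). Rab25, a recycling GTPase, had 40.3 and 63.6 CPM in EpiSC versus 2.74 CPM in ESC (4.24 ± 0.95), and the tight-junction gene Cldn7 had 82.4 and 117 CPM in EpiSC versus 5.67 CPM in ESC (4.13 ± 0.55). All of these were higher in the male than in the female EpiSC library, and both lay above ESC. Cdh1 (E-cadherin), which ESC use as well, had 535 and 1078 CPM in EpiSC versus 567 CPM in ESC and did not pass (adjusted p = 0.553). The haploid ESC library was close to EpiSC for some of these genes and close to diploid ESC for others: it held 306 CPM of Krt8 and 189 CPM of Krt18, but 12.4 CPM of Esrp1 and 1.29 CPM of Rab25. Against it 3 of the 20 rose, with a median of 0.70.

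Genes typical of fibroblasts were high in both EpiSC libraries. Of 23 listed, 14 were higher in EpiSC and none lower, with a median log2 fold change of 5.81, or 5.68 with genes at 0 set to their bound. Col1a1, a chain of type I collagen, had 232 and 167 CPM in EpiSC versus 1.72 CPM in ESC (6.85 ± 0.69, adjusted p = 0.00333), and Fbln2, a matrix glycoprotein, had 533 and 182 CPM in EpiSC versus 2.29 CPM in ESC (7.28 ± 0.90). Lox, the enzyme that crosslinks collagen, had 128 and 26.5 CPM in EpiSC versus 0 CPM in ESC, at least 403-fold higher in EpiSC, and Col3a1 had 105 and 25.8 CPM in EpiSC versus 0 CPM in ESC, at least 342-fold higher. The haploid ESC library held 613 CPM of Col1a1, 242 CPM of Fbln2, 224 CPM of Lox and 42.5 CPM of Col3a1, at or above the EpiSC range for Col1a1 and Lox. The summed level of the 23 genes was 2413 and 2128 CPM in EpiSC, against 476 CPM in ESC; it was 2435 CPM in haploid ESC. No member was at 0 in EpiSC or haploid ESC, and 5 were at 0 in diploid ESC, among them the defining markers Dcn, Postn and Col3a1. MEF exceeded both EpiSC libraries in FPKM, a per-length unit, for all 23: Col1a1 was at 34.0 and 24.2 FPKM in EpiSC and 3880.1 FPKM in MEF. Against haploid ESC none of the 23 passed and the median was 0.27, and with only the 3 libraries in the fit 5 rose. The diploid ESC library thus stood apart from the other 3 in these genes, and the part of fibroblast-type RNA in the genes called higher in EpiSC was not tested.

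By the naming rule the genes with the largest upward change were Tnc, Lox, Chst1, Ccl2, Inhba, Col3a1, Ddx3y, Eif2s3y, Mmp3 and Il1rl1, and all 10 had no read in diploid ESC. Tnc, the matrix protein tenascin C, had 949.6 and 198 CPM in EpiSC versus 0 CPM in ESC, at least 3004-fold higher in EpiSC (adjusted p = 0.00773), with 362 CPM in haploid ESC. In FPKM, Tnc was at 117 and 24.1 in EpiSC and at 296 in MEF. Chst1, a sulfotransferase that modifies keratan sulfate chains, was less shared with the other libraries: it had 43.7 and 97.8 CPM in EpiSC versus 0 CPM in ESC, at least 370.4-fold higher in EpiSC, with 3.30 CPM in haploid ESC. Among all 1144 genes higher in EpiSC, 582 (50.9%) had more FPKM in MEF than in either EpiSC library, against 38.3% of all genes tested. Without the genes so marked, 562 higher and 563 lower genes remained of the calls, an alternative chosen after seeing the data. Of 16 mesenchymal genes 3 rose (Prrx1, Acta2 and Cdh11), and none did against haploid ESC; without the male library 8 did. Snai1, a repressor of epithelial genes, had 7.99 and 3.33 CPM in EpiSC versus 3.37 CPM in ESC, its relative Snai2 had 4.71 and 1.32 CPM in EpiSC versus 0.700 CPM in ESC, and Vim, the intermediate filament vimentin, had 679 and 296 CPM in EpiSC versus 327 CPM in ESC; none of these passed.

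Genes that set EpiSC apart from both ESC libraries and from MEF were picked by a rule added after the values were seen: called higher in EpiSC, and in haploid ESC and in MEF (by FPKM) at most 0.25 of the level of the lower EpiSC library. There were 103 such genes, and since they were chosen on these values their levels are a description. Those with the largest changes were Lypd6b, Mcoln3, Prom2, Fndc3c1, Slc39a8, Car4, Fgf5, Calcr, St6gal2 and Slc22a3. Calcr, the calcitonin receptor, had 67.7 and 47.3 CPM in EpiSC versus 0.127 CPM in ESC, with 0.257 CPM in haploid ESC. Car4, a membrane-anchored carbonic anhydrase, had 29.1 and 314 CPM in EpiSC versus 0.191 CPM in ESC, and Slc39a8, a zinc importer, had 56.7 and 268 CPM in EpiSC versus 0.127 CPM in ESC; both were several times higher in male than in female EpiSC. Fndc3c1, an X-linked gene of the fibronectin type III family, had 62.9 and 156 CPM in EpiSC versus 0.0637 CPM in ESC, and Lypd6b, a membrane-anchored member of the Ly6 family, had 14.5 and 15.7 CPM in EpiSC versus 0 CPM in ESC.

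**Figure D4:**
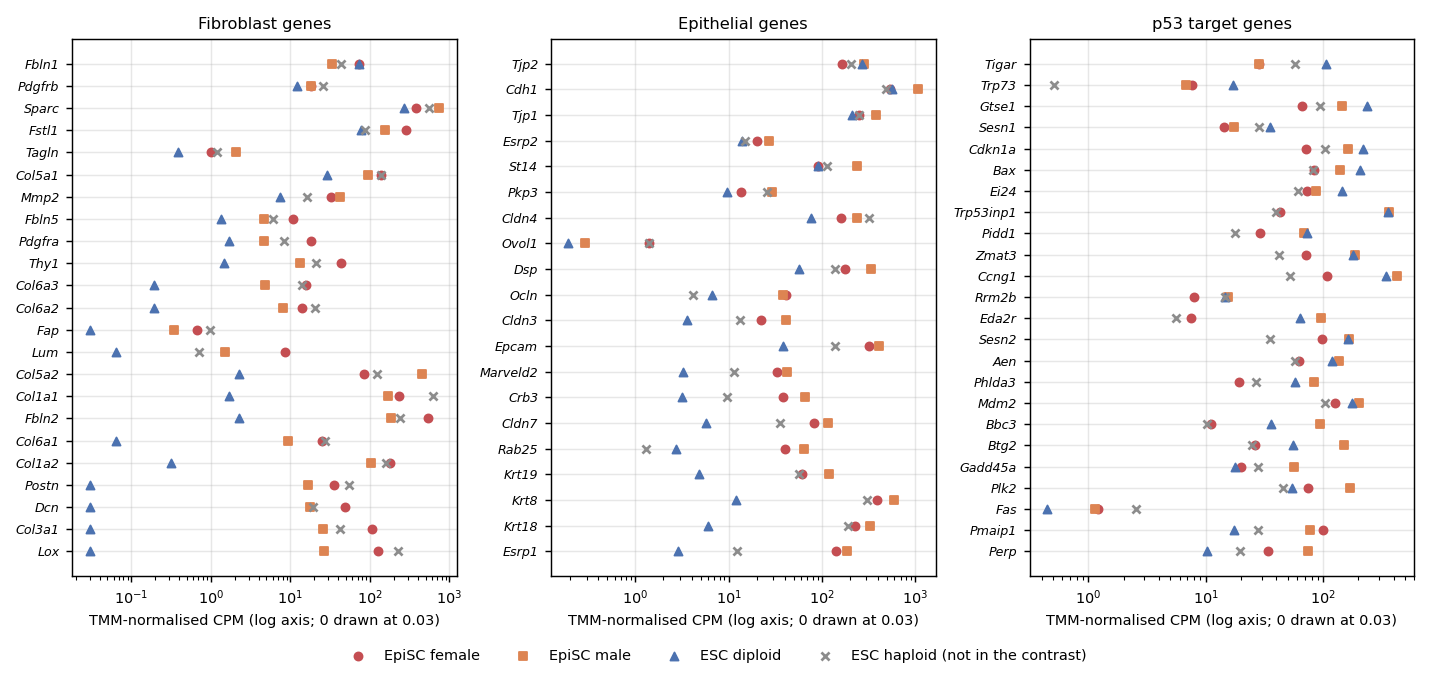
TMM-normalised CPM (log axis, a count of 0 drawn at 0.03) of every member of the fibroblast, epithelial and p53 target lists in female EpiSC, male EpiSC, diploid ESC and haploid ESC. In the fibroblast panel diploid ESC lies lowest for most genes while haploid ESC lies among the EpiSC libraries (summed level 2413 and 2128 CPM in EpiSC, 476 CPM in ESC, 2435 CPM in haploid ESC); in the p53 panel male EpiSC and diploid ESC lie together on the right for 15 of 24 genes.

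The heparan sulfate enzyme Hs3st3b1, named in the title of the series, did not separate the groups. Hs3st3b1, a 3-O-sulfotransferase (ENSMUSG00000070407, chromosome 11 at 63885792 to 63922290), had 9.37 and 0.345 CPM in EpiSC versus 4.90 CPM in ESC (-0.01 ± 1.502, adjusted p = 1.00), so ESC lay between the EpiSC libraries. Of 21 tested enzymes that build, modify or cut heparan sulfate 3 rose (14.3%, against 5.56% of all genes tested) and none fell (median 0.30). Ext1, a subunit of the chain polymerase, had 95.6 and 94.4 CPM in EpiSC versus 39.4 CPM in ESC (1.27 ± 0.30, adjusted p = 0.0424), Extl2 had 17.7 and 16.2 CPM in EpiSC versus 3.76 CPM in ESC (2.17 ± 0.50), and Hs6st2, a 6-O-sulfotransferase, had 17.7 and 5.58 CPM in EpiSC versus 0.127 CPM in ESC (adjusted p = 0.0173, 2 reads in ESC). Ext1 lost its call without the female library (adjusted p = 0.0580) and without the male one (adjusted p = 0.0501). None of the 3 passed in the fit of 3 libraries, and 1 member rose against haploid ESC. Among 10 glypicans and syndecans, the core proteins that carry the chains, 4 rose and none fell (median 1.85, or 1.29 with genes at 0 set to their bound). Sdc2 had 42.0 and 62.9 CPM in EpiSC versus 3.57 CPM in ESC (3.88 ± 0.48, adjusted p = 0.00549), Gpc1 had 135 and 103 CPM in EpiSC versus 26.0 CPM in ESC (2.20 ± 0.35), Gpc6 had 21.2 and 14.3 CPM in EpiSC versus 0.828 CPM in ESC (4.41 ± 0.77) and Sdc3 had 56.6 and 28.3 CPM in EpiSC versus 7.13 CPM in ESC (2.57 ± 0.55). Haploid ESC held 11.2 CPM of Sdc2 and 29.7 CPM of Gpc1, below both EpiSC libraries, but 34.5 CPM of Sdc3, and 2 of the 10 rose against it. With only the 3 libraries in the fit 1 rose.

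Markers of cells that could arise in the cultures were measured alongside. None of 16 tested primitive streak and mesendoderm genes passed (median 0.67), although the female EpiSC library held 47.3 CPM of T (Brachyury), a mesoderm factor, against 0.115 CPM in male EpiSC and 0.828 CPM in ESC. Without the female library 4 fell and the median was -2.56, and without the male library 2 rose and 1 fell. Against haploid ESC none passed and the median was -0.96, and with DESeq2 1 rose and 1 fell. Of 18 tested extraembryonic endoderm genes, 3 rose (16.7%) and 2 fell (11.1%), against 5.56% and 4.03% of all genes tested (median 1.32). Against haploid ESC 1 rose and 2 fell with a median of -1.24, and with both ESC libraries as 1 group none rose, 1 fell and the median was -0.82. The 3 that rose, Lamb1, Col4a1 and Col4a2, encode basement membrane proteins and are not specific to that tissue. Lamb1 had 439 and 401 CPM in EpiSC versus 40.7 CPM in ESC (3.37 ± 0.41). Col4a2 had 162 and 138 CPM in EpiSC versus 13.8 CPM in ESC, with 139.7 CPM in haploid ESC, against which its log2 fold change was 0.10, while the defining markers Gata4, Gata6, Sox17 and Sox7 were at or below 1.55 CPM in EpiSC and at or below 1.97 CPM in ESC. Lama1, the laminin chain of the earliest basement membranes, fell, with 3.55 and 4.02 CPM in EpiSC versus 87.2 CPM in ESC (-4.52 ± 0.71), and Hnf4a, a factor of visceral endoderm, had 0 and 0 CPM in EpiSC versus 4.90 CPM in ESC, at least 28.9-fold lower in EpiSC. Of 15 tested trophoblast genes 2 fell, Tead4 with 14.9 and 17.0 CPM in EpiSC versus 52.6 CPM in ESC (-1.72 ± 0.36) and Tfap2c with 8.15 and 13.3 CPM in EpiSC versus 91.5 CPM in ESC (-3.09 ± 0.68), both of which ESC also use. Of 15 tested neural genes 3 rose (median 2.76): Nes, the neural progenitor filament nestin, had 604 and 457 CPM in EpiSC versus 23.0 CPM in ESC (4.53 ± 0.42, adjusted p = 0.00279), Map2 had 28.1 and 20.5 CPM in EpiSC versus 1.97 CPM in ESC (3.62 ± 0.64), and Pax6 had 30.6 and 5.00 CPM in EpiSC versus 0.318 CPM in ESC (5.77 ± 1.40, adjusted p = 0.0453). Sox1 had 37.4 and 9.14 CPM in EpiSC versus 3.44 CPM in ESC without passing, and the neuronal genes Tubb3 and Neurod1 did not pass either (adjusted p = 0.662 and 0.795). The summed level was 815 and 555 CPM in EpiSC and 113 CPM in ESC for the neural list, 1242 and 1520 CPM in EpiSC and 453 CPM in ESC for extraembryonic endoderm, and 69.2 and 49.5 CPM in EpiSC and 176 CPM in ESC for trophoblast. Haploid ESC held 185 CPM of the neural list, 1112 CPM of the extraembryonic endoderm list, close to EpiSC, and 287 CPM of the trophoblast list; the part of such cells in the results was not tested. With only the 3 libraries in the fit 1 neural gene rose, and without the male library 6 did. Nes and Map2 were high in both EpiSC libraries, whereas Pax6 and Sox1 were several times higher in the female one.

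**Figure D5:**
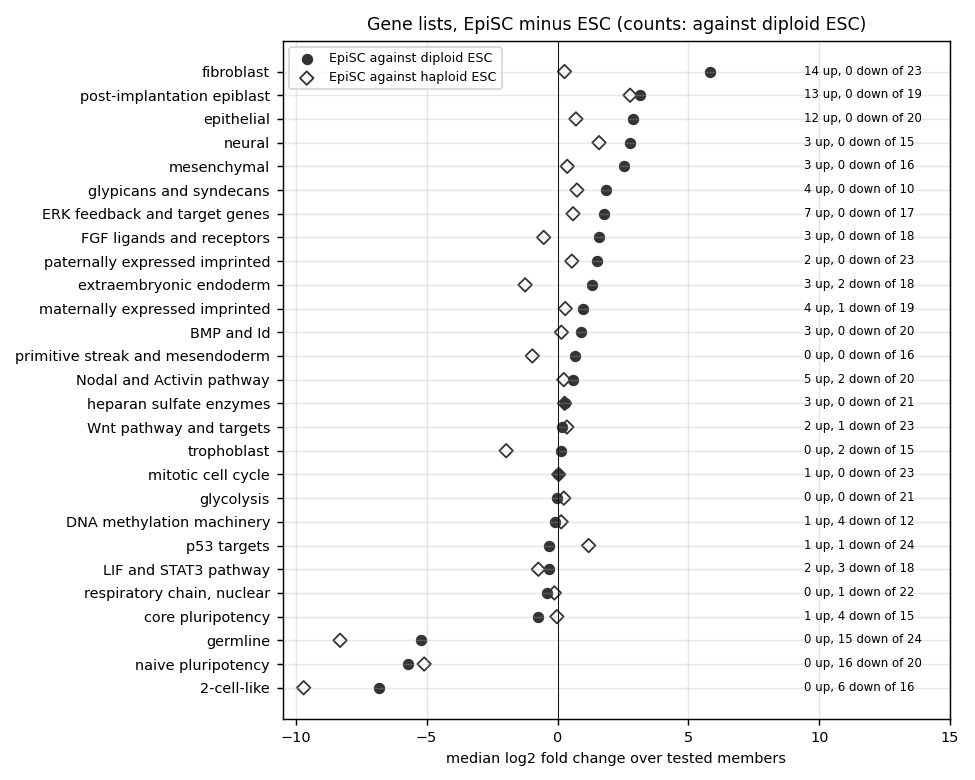
Median log2 fold change over the tested members of each of the 27 gene lists, for EpiSC against diploid ESC (filled circles) and EpiSC against haploid ESC (open diamonds), with the counts of members that rose and fell against diploid ESC at the right. The naive, germline, 2-cell-like and post-implantation lists stay far from 0 with either ESC library, whereas the fibroblast list is at 5.81 with diploid and 0.27 with haploid ESC.

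Trp53, the p53 gene whose knockout the series studies, is labelled wild type in all 3 libraries, but its level was uneven. It lies on chromosome 11 at 69580359 to 69591873 and had 37.4 and 202 CPM in EpiSC versus 384 CPM in ESC (adjusted p = 0.227), so that female EpiSC stood far below the other 2 libraries; haploid ESC held 29.3 CPM. Of 24 p53 target genes 1 rose and 1 fell (median -0.31), or 4.17% each, against 5.56% higher and 4.03% lower over all genes tested. Pmaip1 (Noxa), a pro-apoptotic BH3 protein, had 99.9 and 78.2 CPM in EpiSC versus 17.6 CPM in ESC (2.34 ± 0.38, adjusted p = 0.0126), and Tigar, a regulator of glycolysis, had 28.6 and 28.6 CPM in EpiSC versus 105 CPM in ESC (-1.88 ± 0.29, adjusted p = 0.0118). Many other members were high in male EpiSC and diploid ESC and low in female EpiSC and haploid ESC. Ccng1 (cyclin G1) had 109 and 427 CPM in EpiSC versus 347 CPM in ESC, with 52.3 CPM in haploid ESC, and Trp53inp1 had 42.9 and 364 CPM in EpiSC versus 356 CPM in ESC, with 39.6 CPM in haploid ESC. Eda2r, a receptor of the TNF receptor family, had 7.49 and 95.4 CPM in EpiSC versus 63.7 CPM in ESC, with 5.56 CPM in haploid ESC. In 15 of the 24 both male EpiSC and diploid ESC were above both female EpiSC and haploid ESC, an order that 13.7% of all genes tested showed; it was noticed in these data and is given without a test. The summed level of the list was 1189 and 2967 CPM in EpiSC, against 2715 CPM in ESC and 985 CPM in haploid ESC. Against haploid ESC 3 rose, none fell and the median was 1.19. Without the female library 5 targets rose and 1 fell, and without the male library 2 rose and 8 fell.

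The 2 EpiSC libraries differed past 4-fold in 337 of the 10601 genes with at least 10 CPM in the higher one (3.18%), 200 higher in the female library (1.89%) and 137 higher in the male one (1.29%); 1 library each allows no test. Of the 1974 genes called between EpiSC and ESC, 57 were among them. The largest excess in the female library was seen for T, Nr0b1, Cdx2, Gsdmc4 and Nkx1-2. T had 47.3 CPM in female and 0.115 CPM in male EpiSC, Cdx2, a caudal factor of the posterior embryo and trophoblast, had 17.7 and 0 CPM, and Nkx1-2, a homeobox gene of the caudal epiblast, had 21.0 and 0.0575 CPM. These 3 genes of the posterior embryo were thus present in the female library and at or near 0 in the male one; ESC held 0.828 CPM of T, 0.573 CPM of Cdx2 and 1.91 CPM of Nkx1-2. The genes with the largest excess in the male library included Rgs14, Got1l1 and the Y-linked genes Kdm5d and Uty. Rgs14, a regulator of G-protein signalling, had 0.499 CPM in female and 158 CPM in male EpiSC.

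Genes of the sex chromosomes were read against the labels. Ddx3y, a Y-linked helicase, had 5.82 and 95.7 CPM in EpiSC versus 0 CPM in ESC, and Eif2s3y, a Y-linked translation factor, had 4.44 and 95.0 CPM in EpiSC versus 0 CPM in ESC. Kdm5d had 0.943 and 48.9 CPM in EpiSC versus 0 CPM in ESC, and Uty had 0.887 and 39.9 CPM in EpiSC versus 0 CPM in ESC, both Y-linked demethylase genes. The male EpiSC library was thus high in all 4, the female one held low levels above its floor of 0.166 CPM, and ESC had no read of any. Haploid ESC held between 0.566 CPM (Kdm5d) and 2.37 CPM (Ddx3y). Ddx3y and Eif2s3y passed the threshold (adjusted p = 0.0433 for Ddx3y, and just under the threshold for Eif2s3y). Xist, the RNA that coats the inactive X chromosome, had 46.9 and 10.3 CPM in EpiSC versus 24.3 CPM in ESC (adjusted p = 0.921), with its antisense partner Tsix overlapping it and the strand setting of the counting not stated. Over chromosome 12 the median log2 ratio to ESC of the 401 genes with at least 10 CPM was 0.75 in female EpiSC and 0.09 in male EpiSC. The female minus male median was 0.73 there and lay between -0.14 (chromosome 7) and -0.0008 (chromosome 5) on the other autosomes. The female library was thus higher across chromosome 12 as a whole. The median EpiSC minus ESC log2 fold change of the 401 genes was 0.50, so the main contrast was shifted there too. On the other autosomes that median lay between -0.06 (chromosome 16) and 0.10 (chromosome 1). Values given for single genes of chromosome 12 were not corrected for this shift, and its cause was not tested.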

How the data were processed

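RNA of 10 libraries was selected with poly-T beads, per the labels' protocols. The deposited counts are whole numbers of reads per gene, from HISAT2 2.0.5 alignments to mm10 tallied by featureCounts 1.5.0-p3, per the submitters' processing notes. No source used here states the strand setting. The deposited FPKM equal those counts divided by gene length and 1 constant per library, by a check on the values; they were used to set MEF beside EpiSC and for no test.

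Counts of the 9 pluripotent libraries (7 groups, 1 mean each; MEF left out) were fitted with edgeR 4.0.16 in R 4.3.3: filterByExpr, TMM, quasi-likelihood F test and Benjamini-Hochberg adjustment at 0.05. The contrast was wild-type diploid EpiSC minus wild-type diploid ESC. SEs were derived as |log2 fold change| over the root of F. Bounds use a floor of 3 counts per library, and ratios resting on 1 to 3 counts carry exact binomial 95% intervals, which cover counting error only. Depth was 15899032 to 17293965 counts in the 3 libraries. DESeq2 1.42.0, its size factors, no filter, the 3 libraries alone, haploid ESC joined or in place, and each EpiSC library left out were run as alternatives. The female and male EpiSC libraries were compared by log2 ratio with a prior count of 2. The fit was tested on counts simulated with the same dispersion for every gene and library. That simulation could not probe whether the ESC library varies like the EpiSC libraries. Promoters came from a RefSeq table of GRCm38.p6, matched by symbol.

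The comparison, its 27 lists (523 entries, 506 distinct genes, all found) and the named genes were chosen with earlier results of these data known. Named were the marker and sex-linked genes, Trp53 and Hs3st3b1, the 10 protein-coding genes per direction with the largest called change (at least 10 CPM on the higher side, both EpiSC libraries on 1 side of ESC, predicted genes and RIKEN clones left out), up to 4 called members per list or else 2 by smallest p, and 5 genes per direction between the EpiSC libraries; other list members are given to account for the lists. A few genes that are counted in the lists or rankings are not reported here by name or drawn. Of the symbols, 102 are shared by more than 1 gene ID.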

Additional observations from a re-analysis of the deposited data

How the results depend on the processing

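The number of genes called was 1974 (1144 higher and 830 lower in EpiSC). It was 535 (294 and 241) with only the 3 libraries compared in the fit, which leaves 1 residual degree of freedom, 3052 (1956 and 1096) with DESeq2, 1952 (1107 and 845) with DESeq2 size factors in edgeR, and 3792 (2207 and 1585) without the low-count filter. With haploid ESC joined as the second ESC library it was 1009 (502 and 507), and with haploid ESC in place of the diploid library 1024 (380 and 644). Higher genes made up 58.2% of the calls without the filter, 64.1% with DESeq2, 49.8% with haploid ESC joined and 37.1% with haploid ESC in place. Leaving out each EpiSC library in turn gave 2847 to 2886 genes, with 1686 to 1804 higher and 1043 to 1200 lower. Without the genes whose MEF FPKM exceeded both EpiSC libraries it was 1125 (562 and 563), an alternative chosen after seeing the data. The count past 4-fold between the EpiSC libraries was 337, and 333 with DESeq2 size factors. The causes of these differences were not tested.

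Of 106 named genes that passed, 55 still passed with the 3 libraries alone, 103 with DESeq2, 105 with DESeq2 size factors and 106 without the filter. With haploid ESC joined 58 still passed, and 59 with haploid ESC in place. The lists held 469 to 491 tested genes under these alternatives, the fewest with the 3 libraries alone. Their sign turned in 56 with haploid ESC joined (6 of them called) and in 108 with haploid ESC in place (14 called). It turned in 49 without the female and in 30 without the male library (none called), and in at most 6 under the other alternatives (none called). Called members whose sign turned with haploid ESC in place included Col1a1, Junb and Uhrf1. For the genes chosen by the naming rule the turned log2 fold changes were these. With haploid ESC joined they were -0.32 for Acta2, 0.30 for Got1l1, -1.08 for Gsdmc4, -0.45 for Inhba, -0.54 for Lox, -0.067 for Postn and -0.93 for Xist. With haploid ESC in place they were -1.32 for Acta2, 2.18 for Got1l1, -2.07 for Gsdmc4, -0.81 for Ier3, -1.45 for Inhba, -1.54 for Lox, 0.065 for Nr0b1, -0.36 for Osmr, -1.06 for Postn, 2.03 for Trp53 and -1.57 for Xist. Leaving out the female and the male library in turn gave ranges of -6.34 to 4.94 for Cdx2, -6.33 to 0.45 for Got1l1, -5.19 to 5.78 for Gsdmc4, -3.85 to 0.93 for Hs3st3b1, -4.93 to 3.46 for Nkx1-2, -1.02 to 7.21 for Rgs14, -2.82 to 5.83 for T and -1.28 to 0.95 for Xist. Without the filter Hs3st3b1 was at 0.0035. No paired analysis was possible because the labels give the EpiSC and ESC libraries no shared replicate numbers. Depth limits what can be said of genes under about 0.2 CPM, where 3 counts or fewer stand behind a value.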

Other observations

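Imprinted genes, which are expressed from the copy of 1 parent, were measured in 2 lists. Of 23 tested paternally expressed genes 2 rose and none fell (median log2 fold change 1.49). The share that rose was 8.70%, against 5.56% of all genes tested. Nnat, a membrane proteolipid, had 156 and 129.6 CPM in EpiSC versus 10.9 CPM in ESC (3.71 ± 0.80, adjusted p = 0.0312), and Igf2, the fetal growth factor, had 1.94 and 3.16 CPM in EpiSC versus 0.0637 CPM in ESC (adjusted p = 0.0289), its ESC level resting on 1 read. Peg3, a zinc-finger gene, had 592 and 372 CPM in EpiSC versus 103 CPM in ESC and did not pass (adjusted p = 0.0563). Mest, a hydrolase gene, had 362 and 48.9 CPM in EpiSC versus 73.1 CPM in ESC, the female EpiSC library being the high one. Without the male library 14 of the 23 rose and 1 fell, and without the female library 5 rose and 1 fell; against haploid ESC none passed (median 0.55). Of 19 tested maternally expressed genes 4 rose and 1 fell (median 0.99). Without the female library 6 rose, without the male library 7 did, and against haploid ESC 1 did (median 0.29). Gatm, an enzyme of creatine synthesis, had 15.97 and 14.7 CPM in EpiSC versus 0.700 CPM in ESC (4.44 ± 0.61, adjusted p = 0.00786), and Gnas, the stimulatory G-protein subunit, had 116 and 86.7 CPM in EpiSC versus 13.2 CPM in ESC (2.94 ± 0.57). Cobl, an actin nucleator, fell, with 8.60 and 6.55 CPM in EpiSC versus 261 CPM in ESC (-5.10 ± 0.39, adjusted p = 0.00206). Grb10, an adaptor that restrains growth factor signals, had 29.9 and 632 CPM in EpiSC versus 28.6 CPM in ESC (adjusted p = 0.206), high in the male library alone. Meg3, a noncoding RNA of the imprinted cluster on chromosome 12, had 1627 and 687 CPM in EpiSC versus 506 CPM in ESC, and its neighbour Rian had 1311 and 525 CPM in EpiSC versus 522 CPM in ESC; neither passed, and the female library was the higher in both.

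None of 21 glycolysis genes passed with edgeR (median -0.02), and 1 rose and 1 fell with DESeq2. With edgeR 2 rose and 2 fell without the female library, 3 rose and 2 fell without the low-count filter, and 1 fell with DESeq2 size factors or with haploid ESC joined. Slc16a3, a lactate exporter, had 292 and 588 CPM in EpiSC versus 104 CPM in ESC (adjusted p = 0.113), and Hk1 (hexokinase 1) had 61.5 and 61.4 CPM in EpiSC versus 177 CPM in ESC (adjusted p = 0.0523). Of 22 nuclear genes of the respiratory chain 1 fell, Cox5a, with 67.7 and 68.5 CPM in EpiSC versus 166 CPM in ESC (-1.29 ± 0.30, adjusted p = 0.0410, and 0.0598 without the male library); the median was -0.39, and 19 of the 22 had a negative log2 fold change, against 9948 of 20583 genes tested. Uqcrc1, a core protein of complex III, had 191 and 167 CPM in EpiSC versus 373 CPM in ESC (adjusted p = 0.110). The share of the respiratory chain genes that fell was 4.55%, against 4.03% of all genes tested. Against haploid ESC the median of these genes was -0.12 and none passed. Of 23 mitotic cell cycle genes 1 rose, or 4.35%, against 5.56% of all genes tested. It was the G1 cyclin Ccnd2, with 188 and 21.2 CPM in EpiSC versus 0.509 CPM in ESC (7.66 ± 1.59, adjusted p = 0.0282). Its haploid ESC level, 34.8 CPM, lay between the EpiSC values. The list's count was 2 up and 1 down without the female library, 3 up and 2 down without the male library and 4 up and 2 down with DESeq2. Ccnd3, a related cyclin, had 114 and 141 CPM in EpiSC versus 320.2 CPM in ESC (adjusted p = 0.0502), and Mki67, the proliferation marker, had 422 and 634 CPM in EpiSC versus 304 CPM in ESC (adjusted p = 0.362).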
